A study of Mus musculus with 50 samples.

Results

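The TNF receptor family is a set of cell-surface and soluble receptors for ligands related to tumour necrosis factor. The 10 genes described here are Fas, Tnfrsf10b, Tnfrsf1a, Tnfrsf21, Tnfrsf1b, Ltbr, Tnfrsf12a, Tnfrsf18, Tnfrsf19 and Tnfrsf11b, out of 18193 gene symbols on the array. They were taken as the probe sets whose only annotated symbol is one of these names, which gave 17 of the 45037 probe sets with values. Each gene is described by its brightest probe set (highest mean over all arrays), with other probe sets beside it where they differ. Of the 10 genes, 8 passed a brightness filter (above the table median, 6.44 on the log2 scale, on at least 10 arrays) and were tested, among 12883 genes in all. Tnfrsf11b and Tnfrsf19 did not pass. A difference is called where its adjusted p is under 0.05.

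The cells were young adult mouse colon (YAMC) cells, an epithelial line from mice carrying the large T antigen tsA58, a temperature-sensitive viral protein under an interferon-inducible promoter that keeps the cells dividing. There were 50 arrays, 10 each from mp53/Ras cells (p53175H and RasV12), mp53 cells (p53175H with the empty Neo vector), Ras cells (RasV12 with the empty Bleo vector), bleo/Neo cells (both empty vectors) and parental YAMC cells, which received no virus. The 4 infected populations were polyclonal, each exists once, and all 5 groups carry tsA58. Cells were maintained with 5 U per ml interferon gamma, and the permissive temperature was 33 °C. They spent 48 h at 39 °C without interferon gamma, which turns tsA58 off, and then 24 h with 0% serum. Polysomal RNA, the fraction of mRNA bound to ribosomes, was hybridised. The labels number the replicates and do not say whether they were separate cultures or days, so p-values measure only the spread between these samples. A level here is a log2 intensity, which combines transcript abundance with ribosome loading, and in such bulk RNA fewer expressing cells and less RNA per cell cannot be told apart.

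Receptors of the family fall into death receptors, which carry an intracellular death domain, receptors without it that bind TRAF adaptors directly, and decoys. A ligand-bound death receptor such as Fas recruits the adaptor FADD and caspase-8 and can start apoptosis, while the TRAF-binding receptors mainly feed NF-kB and kinase signalling. Colon epithelial cells express Fas, and Fas and the TRAIL receptor Tnfrsf10b are known targets of the transcription factor p53.

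Arrays and groups were checked first. By root mean square difference from the group means over all tested genes, 47 of the 50 arrays lay nearest their own group. The exceptions were replicate 10 of mp53, nearer Ras, replicate 10 of Ras, nearer mp53, and replicate 8 of mp53, nearer YAMC. Results that rest on these arrays are given with and without them. The bleo/Neo population stands apart in a further way: 3 Y-linked genes averaged 3.57 to 3.80 on its 10 arrays, against 5.81 to 8.17 on the 40 others, and its part in differences from bleo/Neo was not tested. Of 12 colon epithelial markers 7 passed the brightness filter, while Cdh1, Vil1, Cdx1, Cdx2 and Cldn4 did not pass. Krt8 averaged 12.94 in mp53/Ras and 11.75 in YAMC cells, and Krt18 averaged 12.67 and 10.54. Krt19 averaged 9.78 in mp53/Ras and 11.54 in bleo/Neo cells. The summed linear intensity of all 12 was 13843 to 17092 in mp53/Ras, 7895 to 15246 in mp53 and 11472 to 16279 in Ras cells. It was 9773 to 14510 in bleo/Neo and 5252 to 10369 in YAMC cells. Of 12 fibroblast markers 8 passed. The summed linear intensity of all 12, passing or not, was 40868 to 48751 in mp53/Ras, 40069 to 79411 in mp53, 31563 to 55275 in Ras, 37404 to 57833 in bleo/Neo and 53490 to 77495 in YAMC. Collagen gene Col1a2 averaged 8.68 in bleo/Neo cells and 12.08 to 13.30 in the other groups. Of 11 measured immune markers 5 passed, namely Cd68 (group means 8.41 to 9.96), Cd14 (7.96 to 9.30), Csf1r, Cd3e and Lyz2, while Ptprc, Cd3g, Cd79a, Itgam, Adgre1 and Nkg7 were above the table median on 0 arrays. The summed linear intensity of all 11, passing or not, was 1420 to 1811 in mp53/Ras, 1202 to 2256 in mp53, 1351 to 2697 in Ras, 1436 to 3610 in bleo/Neo and 1370 to 2933 in YAMC. Of 6 endothelial markers 2 passed, Kdr on 50 arrays and Tek on 17, and Pecam1, Cdh5, Emcn and Vwf were above it on 0. The sum of all 6, passing or not, was 309 to 387 in mp53/Ras, 351 to 463 in mp53, 311 to 397 in Ras, 437 to 530 in bleo/Neo and 391 to 554 in YAMC. The part of these marker genes in the results was not tested.

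The promoters of the 4 members with the largest called differences between mp53/Ras and bleo/Neo cells are shown because Fas and Tnfrsf18 fell in mp53/Ras cells and Tnfrsf1b and Tnfrsf21 rose. RefSeq promoters (build GRCm38.p6, 250 bases before to 50 after the start) were found for 8 of the 10 members, with 9 promoters in all. Each was searched on both strands for 4 motifs: AP-1 (TGANTCA), the GC box (GGGCGG), NF-kB and the p53 half-site. Capitals mark matches to the AP-1 motif or the GC box on either strand.
Fas, chr19:34290409-34290708, plus strand: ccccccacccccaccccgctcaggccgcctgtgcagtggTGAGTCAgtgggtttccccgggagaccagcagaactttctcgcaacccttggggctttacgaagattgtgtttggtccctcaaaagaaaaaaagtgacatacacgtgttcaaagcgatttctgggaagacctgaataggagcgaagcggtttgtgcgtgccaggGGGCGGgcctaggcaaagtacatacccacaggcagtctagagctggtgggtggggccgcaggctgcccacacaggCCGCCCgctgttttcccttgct
Tnfrsf18, chr4:156026072-156026371, plus strand: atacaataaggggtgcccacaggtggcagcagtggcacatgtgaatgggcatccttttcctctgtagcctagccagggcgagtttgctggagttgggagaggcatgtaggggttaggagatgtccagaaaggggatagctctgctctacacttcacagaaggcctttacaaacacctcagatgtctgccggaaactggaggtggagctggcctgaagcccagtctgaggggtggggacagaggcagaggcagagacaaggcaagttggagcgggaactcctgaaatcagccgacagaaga
Tnfrsf1b, chr4:145246821-145247120, minus strand: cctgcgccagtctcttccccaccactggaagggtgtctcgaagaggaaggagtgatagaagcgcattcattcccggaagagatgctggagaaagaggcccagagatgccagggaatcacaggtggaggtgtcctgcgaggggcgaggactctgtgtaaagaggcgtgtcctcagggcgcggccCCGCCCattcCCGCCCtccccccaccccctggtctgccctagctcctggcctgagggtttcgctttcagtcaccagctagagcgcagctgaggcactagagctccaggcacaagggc
Tnfrsf21, chr17:43016305-43016604, plus strand: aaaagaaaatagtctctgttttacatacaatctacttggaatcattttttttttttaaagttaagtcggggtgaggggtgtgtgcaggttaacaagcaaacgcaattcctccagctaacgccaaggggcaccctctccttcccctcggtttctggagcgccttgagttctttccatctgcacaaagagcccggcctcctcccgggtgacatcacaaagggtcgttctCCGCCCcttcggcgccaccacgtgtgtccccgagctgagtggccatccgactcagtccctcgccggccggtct
The Fas window held 1 AP-1 match and 2 GC boxes, that of Tnfrsf1b 2 GC boxes, that of Tnfrsf21 1 GC box and that of Tnfrsf18 none of the 4 motifs. Among 32851 promoters of the same length, 7.81% held the AP-1 motif, 35.7% the GC box, 8.46% the NF-kB motif and 8.36% the p53 half-site. These windows of Fas, Tnfrsf18, Tnfrsf1b and Tnfrsf21 held no match to the NF-kB motif or the p53 half-site. A match is only a run of these letters.

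Fas, the death receptor for Fas ligand, was lowest in mp53/Ras cells. Its lowest, median and highest levels (probe set 1460251_at) were 8.74, 8.88 and 9.27 in mp53/Ras cells. They were 9.56, 9.88 and 10.19 in mp53 cells, and 9.76, 10.07 and 10.34 in Ras cells. In bleo/Neo cells they were 9.44, 10.76 and 11.16, and in YAMC cells 10.15, 10.39 and 10.84. All 10 mp53/Ras arrays lay below all 40 others, while mp53 and Ras arrays overlapped each other and the controls. The overlap with bleo/Neo came from 1 array, replicate 1 at 9.44. The other 9 bleo/Neo arrays, at 10.55 to 11.16, lay above every mp53 and Ras array. Of all 12883 genes tested, each by its brightest probe set, 189 (1.47%) were below every other array in mp53/Ras cells. Fas was the only one of the 8 members among them. By the dimmer Tnfrsf10b probe set, 1421296_at, the mp53/Ras arrays also lay below all 40 others, at 6.54 or less. The lowest of those others was an mp53 array at 6.56. On the linear scale the mean intensity was 492 in mp53/Ras cells, against 983 in mp53, 1080 in Ras, 1660 in bleo/Neo and 1387 in YAMC cells.

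In the limma fit over all 50 arrays (difference ± SE, n = 10 arrays per group, Benjamini-Hochberg adjusted over 12883 genes), Fas differed between mp53/Ras and bleo/Neo cells by -1.71 ± 0.12 (adjusted p = 2.43e-17), a 3.27-fold lower level. The difference from bleo/Neo was -0.71 ± 0.12 in mp53 cells (adjusted p = 4.13e-06) and -0.59 ± 0.12 in Ras cells (adjusted p = 8.16e-05). Against YAMC cells the differences were -1.49 in mp53/Ras (adjusted p = 7.43e-15), -0.49 in mp53 (adjusted p = 0.0021) and -0.36 in Ras cells (adjusted p = 0.0125). Fas was thus called lower in every oncogene population against either control, and mp53/Ras cells lay below mp53 cells by a difference of -0.997 (adjusted p = 2.01e-09) and below Ras cells by -1.12 (adjusted p = 3.73e-10). In the order of levels, Ras and mp53 did not differ beyond their spread (adjusted p = 0.45), nor did bleo/Neo and YAMC (adjusted p = 0.145). Replicate 1 of bleo/Neo had a Fas level of 9.44, with the other 9 bleo/Neo arrays at 10.55 to 11.16. Without it, the bleo/Neo minus YAMC difference was 0.36 (adjusted p = 0.002).

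**Figure D1:**
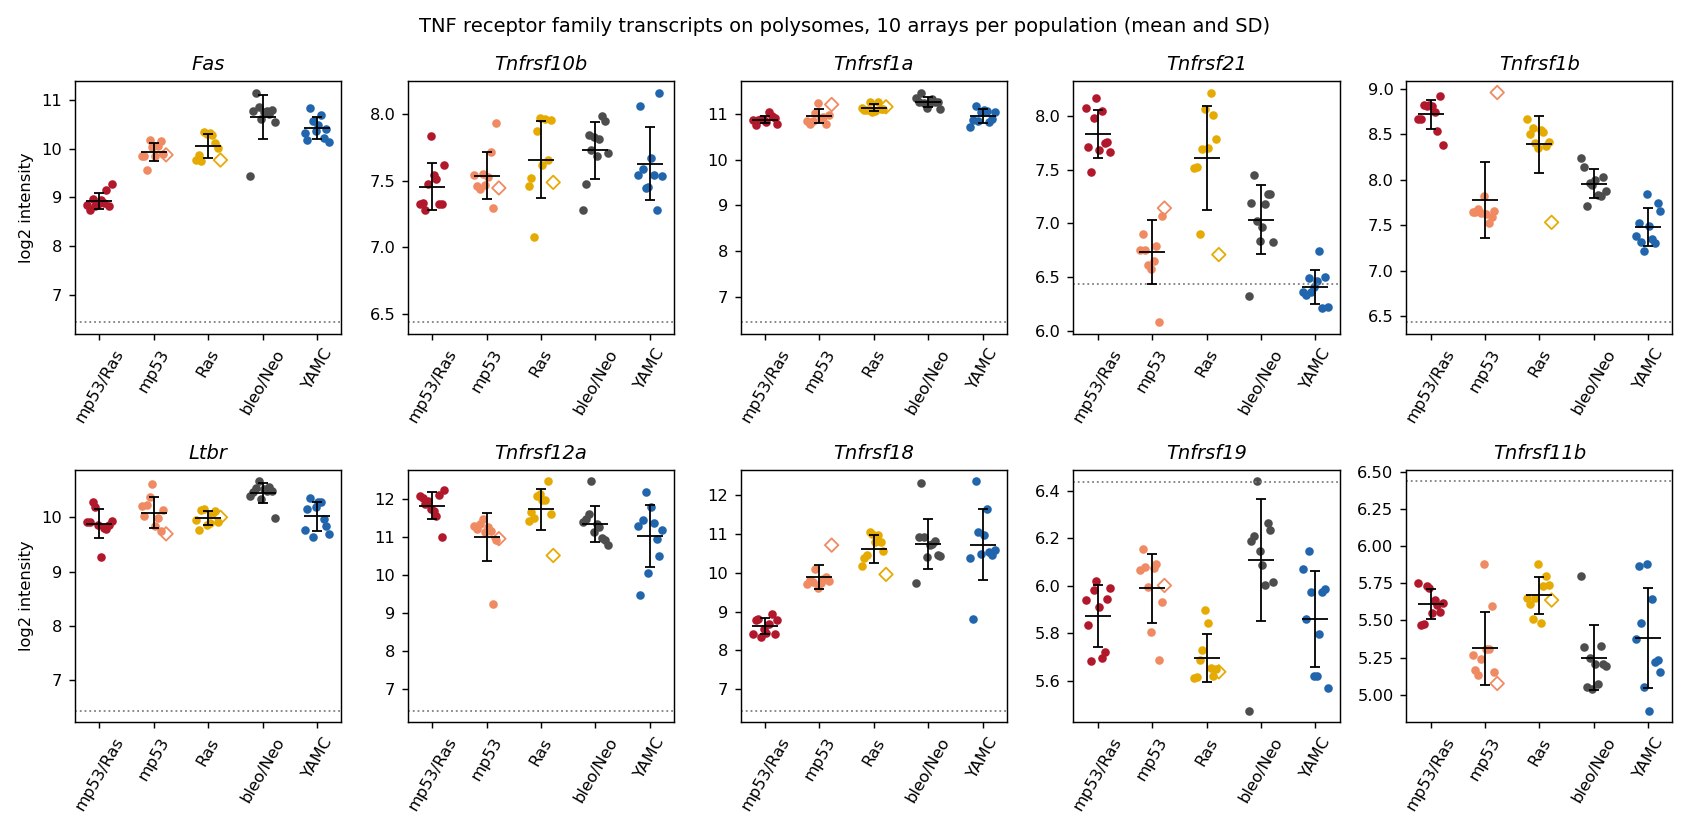
Log2 intensity of the 10 receptors (brightest probe set) on every array, 10 arrays per group, with mean and SD in black. Open diamonds are replicate 10 of mp53 and of Ras, and the dotted line is the table median of 6.44. Each panel has its own scale. Fas in the mp53/Ras arrays lies below all other arrays, and Tnfrsf19 and Tnfrsf11b lie at or below the dotted line apart from 1 array.

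Tnfrsf10b encodes the mouse TRAIL receptor with a death domain, and its 2 probe sets differed in the size of the fall. By the brighter one, 1422344_s_at, levels ran from 7.28 to 7.84 in mp53/Ras cells and from 7.28 to 7.99 in bleo/Neo cells, with a difference of -0.27 ± 0.10 (adjusted p = 0.0198). These ranges overlapped almost wholly, and no other pairwise comparison called Tnfrsf10b by this probe set with all arrays. Without replicate 3 of Ras the mp53/Ras minus Ras difference, -0.20 with all arrays (adjusted p = 0.153), was -0.27 (adjusted p = 0.0442). By the dimmer one, 1421296_at, levels ran from 5.94 to 6.54 in mp53/Ras cells and from 6.69 to 7.65 in bleo/Neo cells. Here every mp53/Ras array lay below every bleo/Neo array, with a difference of -0.80 ± 0.12 (adjusted p = 2.4e-07 over all 45037 probe sets). The same probe set was lower in mp53/Ras cells than in mp53 cells by a difference of -0.50 (adjusted p = 0.000873), in Ras cells by -0.82 (adjusted p = 8.29e-07) and in YAMC cells by -0.61 (adjusted p = 4.31e-05), again with no overlap. A probe set whose name ends in _s_at can match several transcripts.

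Tnfrsf1a, the death-domain receptor for TNF that recruits TRADD, had lowest, median and highest levels of 10.76, 10.88 and 11.04 in mp53/Ras cells. They were 10.80, 10.92 and 11.24 in mp53 cells and 11.06, 11.11 and 11.28 in Ras cells. They were 11.12, 11.27 and 11.48 in bleo/Neo cells and 10.72, 10.97 and 11.17 in YAMC cells. The mp53/Ras arrays all lay below the bleo/Neo arrays and within the YAMC range. The difference from bleo/Neo was -0.39 ± 0.06 in mp53/Ras (adjusted p = 1.06e-07), -0.31 in mp53 (adjusted p = 2.12e-05) and -0.13 in Ras cells (adjusted p = 0.0649). The Ras value was called on leaving out any of 4 arrays, replicate 4 or 7 of Ras or 5 or 10 of bleo/Neo, with differences of -0.14 to -0.15. Against YAMC, the mp53/Ras difference was -0.08 ± 0.06 (adjusted p = 0.235), with an interval of 2 standard errors from -0.20 to 0.04. Ras cells were higher than YAMC cells by 0.18 (adjusted p = 0.01), as were bleo/Neo cells by 0.31 (adjusted p = 2.33e-05). The receptor therefore fell in mp53/Ras cells relative to the vector control and not, by this test, relative to the parental cells.

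Tnfrsf21, a receptor with a death domain, moved the other way. Its lowest, median and highest levels (probe set 1450731_s_at) were 7.48, 7.75 and 8.17 in mp53/Ras cells. In mp53 cells they were 6.08, 6.75 and 7.14, and in Ras cells 6.71, 7.70 and 8.22. In bleo/Neo cells they were 6.33, 7.10 and 7.45, and in YAMC cells 6.21, 6.39 and 6.75. The mp53/Ras arrays were all above the mp53, bleo/Neo and YAMC arrays and overlapped with Ras. The difference of mp53/Ras cells was 0.80 ± 0.14 from bleo/Neo (adjusted p = 2.09e-06), 1.42 ± 0.14 from YAMC (adjusted p = 1.29e-12), 1.10 from mp53 (adjusted p = 3.59e-09) and 0.22 from Ras (adjusted p = 0.267). Ras cells were higher than bleo/Neo by 0.58 (adjusted p = 0.000503). The mp53 minus bleo/Neo difference was -0.30 (adjusted p = 0.0799), and it was called without replicate 10 of mp53 (-0.35, adjusted p = 0.0449) and without replicate 1 of bleo/Neo (-0.38, adjusted p = 0.0206). The mp53 minus YAMC difference was 0.32 (adjusted p = 0.0784), and it was called without replicate 8 of mp53 (0.40, adjusted p = 0.0204) and without replicate 10 of Ras (0.32, adjusted p = 0.0485). The brighter probe set was above the table median on 42 of 50 arrays. The dimmer one, 1422740_at, averaged 6.56 in mp53/Ras and 6.56 in bleo/Neo cells, a difference of 0.01 ± 0.07 (adjusted p = 0.94), so that the rise against bleo/Neo was seen by 1 of the 2 probe sets. This dimmer probe set was higher in mp53/Ras than in YAMC cells by 0.26 (adjusted p = 0.00302) and than in mp53 cells by 0.33 (adjusted p = 0.000327).

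Among the receptors without a death domain, Tnfrsf1b, the TNF receptor that binds TRAF2, was highest in mp53/Ras cells. Its lowest, median and highest levels (probe set 1418099_at) were 8.39, 8.78 and 8.92 in mp53/Ras cells. In mp53 cells they were 7.53, 7.65 and 8.96, and in Ras cells 7.53, 8.46 and 8.67. In bleo/Neo cells they were 7.72, 7.96 and 8.24, and in YAMC cells 7.22, 7.43 and 7.84. The highest mp53 array was replicate 10 and the lowest Ras array replicate 10. The other 9 mp53 arrays ran from 7.53 to 7.82 and the other 9 Ras arrays from 8.36 to 8.67, with no overlap between these. The difference of mp53/Ras cells was 0.76 ± 0.12 from bleo/Neo (adjusted p = 3.43e-07) and 1.24 ± 0.12 from YAMC (adjusted p = 1.41e-12), and no array overlapped in either. Ras cells were higher than bleo/Neo by 0.43 (adjusted p = 0.00271) and than YAMC by 0.91 (adjusted p = 1.73e-08).

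For mp53 cells the call on Tnfrsf1b turned on those arrays. The mp53 minus bleo/Neo difference was -0.18 ± 0.12 (adjusted p = 0.255) with all arrays, -0.31 (adjusted p = 0.00664) without replicate 10 of mp53, and -0.31 ± 0.07 (adjusted p = 0.000479) without both replicates 10. The mp53/Ras minus Ras difference was 0.33 (adjusted p = 0.0399) and 0.23 without replicate 10 of Ras (adjusted p = 0.122), and leaving out any of 9 single arrays ended this call, with an adjusted p of at most 0.122. The mp53 minus YAMC difference was 0.30 (adjusted p = 0.0627) and was called on leaving out any of 4 arrays, replicate 5 or 9 of YAMC, 8 of mp53 or 10 of Ras. The dimmer probe set, 1448951_at, did not show these differences. It averaged 7.37 in mp53/Ras, 7.39 in mp53, 7.43 in Ras, 7.42 in bleo/Neo and 7.53 in YAMC cells, and its mp53/Ras minus bleo/Neo difference was -0.05 ± 0.08 (adjusted p = 0.665).

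Ltbr, the lymphotoxin beta receptor, which acts through non-canonical NF-kB signalling, had lowest, median and highest levels of 9.26, 9.88 and 10.28 in mp53/Ras cells. They were 9.69, 10.08 and 10.62 in mp53, 9.76, 9.97 and 10.15 in Ras, 9.99, 10.48 and 10.66 in bleo/Neo, and 9.63, 10.06 and 10.35 in YAMC cells. Here bleo/Neo was the group that stood highest. Ltbr differed from bleo/Neo by -0.56 ± 0.10 in mp53/Ras (adjusted p = 9.38e-06), -0.36 in mp53 (adjusted p = 0.00528) and -0.46 in Ras cells (adjusted p = 0.00032). Against YAMC the differences were -0.13, 0.07 and -0.03 in mp53/Ras, mp53 and Ras cells and none was called, while bleo/Neo was higher than YAMC by 0.43 (adjusted p = 0.000934). Leaving out replicate 10 of mp53 made the mp53/Ras minus mp53 difference a called one (-0.25, adjusted p = 0.0496, against -0.20 and 0.106 with all arrays).

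Tnfrsf12a, the receptor for TWEAK, had within-group SDs of 0.36 to 0.81. Its lowest, median and highest levels were 10.998, 11.91 and 12.23 in mp53/Ras cells, 9.24, 11.19 and 11.48 in mp53 cells and 10.51, 11.80 and 12.46 in Ras cells. In bleo/Neo cells they were 10.79, 11.30 and 12.45, and in YAMC cells 9.48, 11.23 and 12.18. All of these ranges overlapped. The difference of mp53/Ras cells from bleo/Neo was 0.49 ± 0.25 (adjusted p = 0.0946), with an interval of 2 standard errors from -0.01 to 0.98. This was called without replicate 9 of mp53/Ras (0.58, adjusted p = 0.0493) or without replicate 4 of bleo/Neo (0.61, adjusted p = 0.0321). Tnfrsf12a rose against YAMC in mp53/Ras cells (0.80 ± 0.25, adjusted p = 0.00551) and in Ras cells (0.71, adjusted p = 0.0187), and the call in Ras cells ended without replicate 2 of YAMC (0.54, adjusted p = 0.0607). It was higher in mp53/Ras than in mp53 cells by 0.82 (adjusted p = 0.00579), and in Ras than in mp53 cells by 0.73 (adjusted p = 0.0202), or 0.53 without replicate 8 of mp53 (adjusted p = 0.0665).

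Tnfrsf18, known as a co-stimulatory receptor of T cells and often called GITR, had the largest difference of the 8 tested members. Its lowest, median and highest levels were 8.34, 8.62 and 8.95 in mp53/Ras cells, 9.62, 9.81 and 10.72 in mp53 cells and 9.96, 10.68 and 11.05 in Ras cells. In bleo/Neo cells they were 9.74, 10.73 and 12.32, and in YAMC cells 8.81, 10.57 and 12.37. The mp53/Ras arrays lay below every mp53, Ras and bleo/Neo array and overlapped with a single YAMC array, replicate 2, at 8.81. The difference of mp53/Ras cells was -2.13 ± 0.24 from bleo/Neo (adjusted p = 9.05e-11, 4.38-fold lower) and -2.11 ± 0.24 from YAMC (adjusted p = 1.57e-10). It was -1.28 from mp53 (adjusted p = 1.63e-05) and -2.0 from Ras (adjusted p = 6.23e-09). In mp53 cells Tnfrsf18 was lower than in bleo/Neo by a difference of -0.85 ± 0.24 (adjusted p = 0.00408). In Ras cells the difference from bleo/Neo was -0.13 ± 0.24 (adjusted p = 0.695), so that a change in Ras cells alone was not detected.

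Tnfrsf19, a receptor known from intestinal stem cells, and Tnfrsf11b, the secreted decoy osteoprotegerin, were dim. The brightest Tnfrsf19 probe set was above the table median on 1 of 50 arrays and averaged 5.87 in mp53/Ras, 5.99 in mp53, 5.70 in Ras, 6.11 in bleo/Neo and 5.86 in YAMC cells. The brightest Tnfrsf11b probe set was above it on 0 arrays and averaged 5.61 in mp53/Ras, 5.31 in mp53, 5.67 in Ras, 5.25 in bleo/Neo and 5.38 in YAMC cells. Neither gene entered the tests over 12883 genes. In a fit of all 18193 genes with no filter, Tnfrsf11b differed from bleo/Neo by 0.36 in mp53/Ras cells (adjusted p = 0.00137) and Tnfrsf19 by -0.23 (adjusted p = 0.0103). Over all probe sets, this Tnfrsf19 difference was -0.21 by 1415921_a_at (adjusted p = 0.0246) and -0.08 by 1448147_at (adjusted p = 0.279). The Tnfrsf19 probe sets disagreed in Ras minus mp53. That difference was -0.29 by the brightest (adjusted p = 0.00305), 0.11 by 1415921_a_at (adjusted p = 0.317) and 0.22 by 1448147_at (adjusted p = 0.00347). Tnfrsf11b's second probe set, at 3.14 in mp53/Ras cells and 3.12 in bleo/Neo cells, lay near the lowest value of the table, 3.04.

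**Figure D2:**
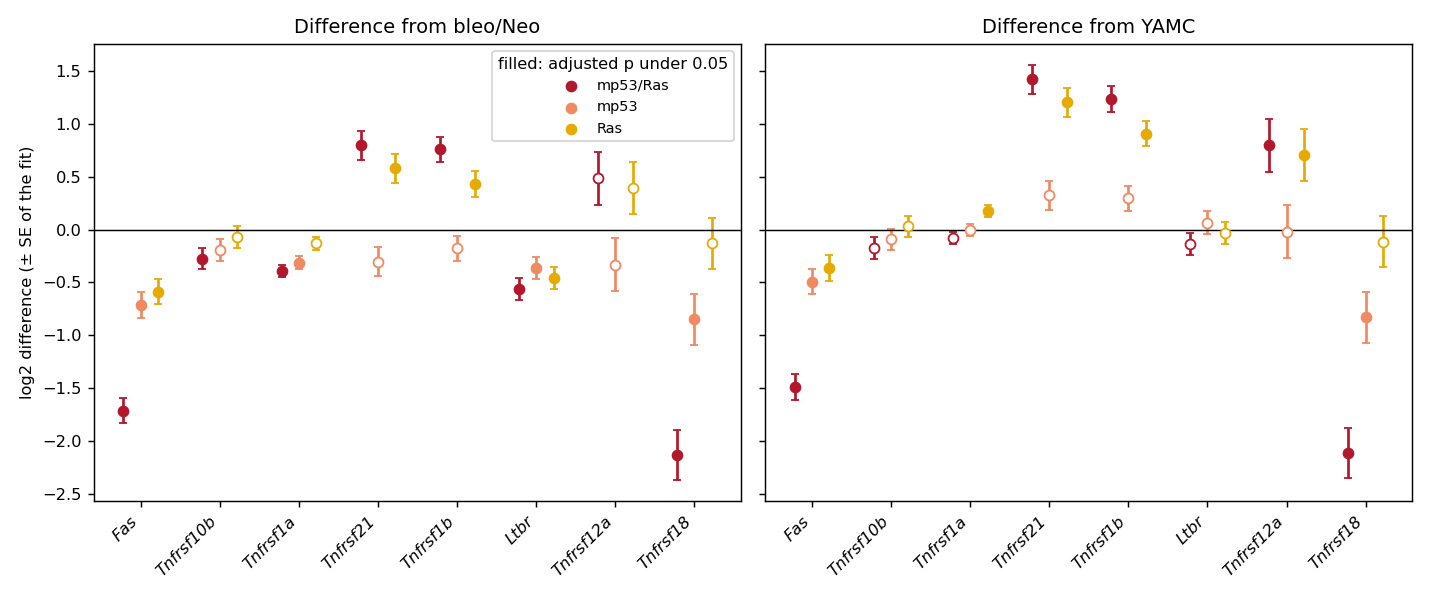
Log2 differences (± SE of the limma fit) of mp53/Ras, mp53 and Ras cells from bleo/Neo cells (left) and from YAMC cells (right) for the 8 tested receptors. Filled points had an adjusted p under 0.05. Fas is filled for all 3 populations on both sides, and Ltbr for all 3 on the left and none on the right.

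In each count over the 8 tested members, the share of all 12883 tested genes called in the same direction stands in parentheses. In mp53/Ras against bleo/Neo cells 2 members were higher (26.7%) and 5 lower (27.9%). The median difference of the members was -0.33, beside 0.01 for all tested genes. Groups did not overlap for 2 members that were higher (6.99%) and 3 that were lower (10.4%), where the parentheses give the share of all genes whose groups did not overlap in that direction. In mp53 against bleo/Neo cells 0 were higher (16.5%) and 4 lower (18.9%), and in Ras against bleo/Neo cells 2 were higher (19.7%) and 2 lower (21.4%). Against YAMC, 3 were higher (29.1%) and 2 lower (28.7%) in mp53/Ras cells, with no overlap for 2 that were higher (7.13%) and 1 that was lower (8.97%). Compared with YAMC cells, 0 were higher (11.1%) and 2 lower (11.8%) in mp53 cells, and 4 higher (21.5%) and 1 lower (21.2%) in Ras cells. The vector population was not the same as the parental cells: 4 members, Tnfrsf1a, Tnfrsf1b, Tnfrsf21 and Ltbr, were higher (20%) and 0 lower (17.4%) in bleo/Neo than in YAMC cells. By its dimmer probe set, 1448951_at, Tnfrsf1b was not called in bleo/Neo against YAMC cells (-0.11, adjusted p = 0.273 over all probe sets). Comparisons that use the same control or the same mp53/Ras arrays share those samples. Leaving out single arrays gave 2 to 4 called members in mp53 against YAMC cells, and 4 were reached without replicate 8 of mp53 or replicate 10 of Ras, where Tnfrsf1b and Tnfrsf21 were also called.

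Set against the single-oncogene populations, 3 members (Tnfrsf1b, Tnfrsf21 and Tnfrsf12a) were higher (23.3%) and 2 (Fas and Tnfrsf18) lower (23.8%) in mp53/Ras than in mp53 cells. Here 1 member, Tnfrsf21, was higher with no overlap (4.14%) and 2 were lower with none (6.87%). Compared with Ras cells, 1 member (Tnfrsf1b) was higher (9.12%) and 3 (Fas, Tnfrsf18 and Tnfrsf1a) lower (12.5%) in mp53/Ras cells. Those 3 did not overlap between the groups (3.3%), and 0 members were higher without overlap (1.01%). Tnfrsf1a, for example, was lower by a difference of -0.26 (adjusted p = 0.000627). Ras cells had 5 members higher (16.7%) and 0 lower (16.2%) than mp53 cells, the 5 being Tnfrsf1a, Tnfrsf1b, Tnfrsf12a, Tnfrsf18 and Tnfrsf21.

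Whether the joint effect of both oncogenes equalled the sum of the single effects on the log2 scale was tested by a non-additive term, computed as mp53/Ras plus control minus mp53 minus Ras. Its value is negative where the mp53/Ras level lies below the sum. YAMC cells received no virus, so with YAMC as the control the term cannot separate the oncogenes from infection and the vectors. With bleo/Neo as the control, 2 members were above (11.8%) and 1 below the sum (12%), and with YAMC 0 were above (5.42%) and 3 below (7.02%), with the share of all tested genes in parentheses. Tnfrsf18 was below the sum with both controls, by a term of -1.15 ± 0.34 with bleo/Neo (adjusted p = 0.00919) and -1.17 ± 0.34 with YAMC (adjusted p = 0.0151). For Fas the term was -0.63 ± 0.17 with YAMC (adjusted p = 0.00873) and -0.41 ± 0.17 with bleo/Neo (adjusted p = 0.074). The bleo/Neo value of Fas passed the threshold without replicate 3 of bleo/Neo (-0.47, adjusted p = 0.0361) or without replicate 3 of mp53 (-0.45, adjusted p = 0.0495).

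Tnfrsf1b and Tnfrsf21 were above the sum only with bleo/Neo as the control, by terms of 0.51 ± 0.17 (adjusted p = 0.0218) and 0.52 ± 0.19 (adjusted p = 0.0418). With YAMC the terms were 0.03 (adjusted p = 0.933) and -0.10 (adjusted p = 0.788). The term with bleo/Neo minus the term with YAMC equals the bleo/Neo minus YAMC difference, which was 0.48 for Tnfrsf1b (adjusted p = 0.00118) and 0.63 for Tnfrsf21 (adjusted p = 0.000237). The Tnfrsf21 call ended on leaving out any of 17 single arrays, with an adjusted p of at most 0.0792. By its dimmer probe set the Tnfrsf21 term with bleo/Neo was 0.29 (adjusted p = 0.0306 over all probe sets), and that of Tnfrsf1b by its dimmer probe set was -0.03 (adjusted p = 0.857). Tnfrsf1a had a term of -0.26 ± 0.08 with YAMC (adjusted p = 0.0272), which was -0.23 (adjusted p = 0.0572) without both replicates 10. With bleo/Neo the Tnfrsf1a term was 0.05 ± 0.08 (adjusted p = 0.701). Tnfrsf10b had no called term by its brighter probe set, and by 1421296_at terms of -0.51 with bleo/Neo (adjusted p = 0.0213) and -0.71 with YAMC (adjusted p = 0.002).

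**Figure D3:**
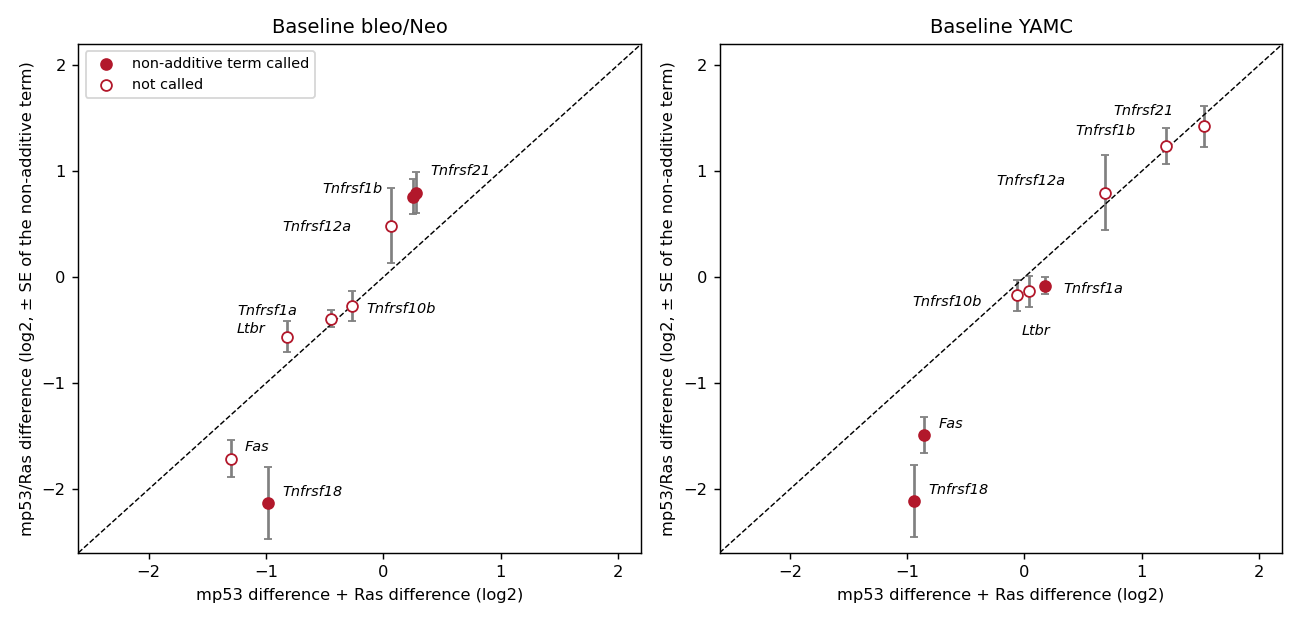
Difference of mp53/Ras cells from the control (vertical, log2, with the SE of the non-additive term) against the sum of the mp53 and Ras differences (horizontal, log2), with bleo/Neo (left) or YAMC (right) as control. Points on the dashed line would be additive, and filled points had an adjusted p under 0.05 for the term. Tnfrsf18 is filled and below the line in both panels, and Fas in the right panel.

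**Figure D4:**
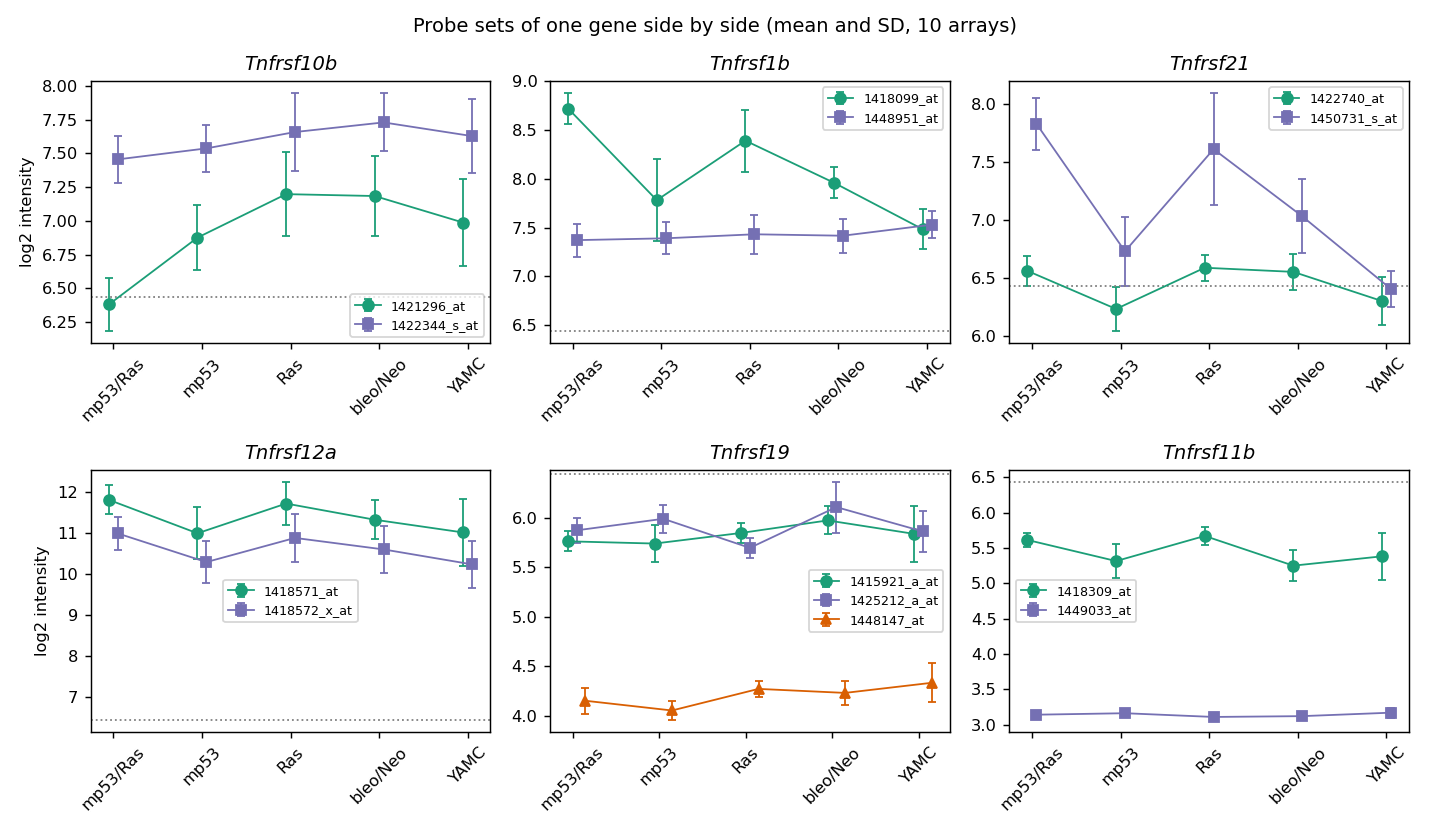
Mean log2 intensity and SD (10 arrays per group) for each probe set of the 6 members with more than 1 probe set. The dotted line is the table median of 6.44, and each panel has its own scale. Probe sets of Tnfrsf12a follow each other, while those of Tnfrsf1b and Tnfrsf21 diverge in mp53/Ras and in Ras cells. The dimmer Tnfrsf10b probe set falls further in mp53/Ras cells.

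For the measured ligands of these receptors little signal was seen. Fas ligand (Fasl), TRAIL (Tnfsf10), lymphotoxins alpha and beta (Lta and Ltb), the Ltbr ligand Tnfsf14 and RANK ligand (Tnfsf11) were above the table median on 0 of 50 arrays. Fasl, for instance, averaged 5.68 in mp53/Ras and 5.47 in bleo/Neo cells. Tnf, the ligand of Tnfrsf1a and Tnfrsf1b, was above it on 50 arrays, at 6.86 in mp53/Ras, 6.87 in mp53, 7.04 in Ras, 6.94 in bleo/Neo and 6.96 in YAMC cells, and was called in Ras against mp53 cells (0.18 ± 0.07, adjusted p = 0.0466). The ligands of Tnfrsf12a and Tnfrsf18 (Tnfsf12 and Tnfsf18) had no probe set with that name as its only symbol, so they were not measured here.

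Of 19 listed ligands of the whole family 6 were tested, and 2 were called higher and 0 lower in mp53/Ras than in bleo/Neo cells, where 26.7% of all tested genes were higher and 27.9% lower. Against YAMC 1 was higher and 0 lower, beside 29.1% and 28.7% of all tested genes. Tnfsf9, a T cell co-stimulatory ligand, had lowest, median and highest levels of 8.65, 9.06 and 9.33 in mp53/Ras cells and 7.33, 7.54 and 8.08 in bleo/Neo cells, with no overlap (1.44 ± 0.14, adjusted p = 2.24e-12). Its difference from bleo/Neo was 1.10 in Ras cells (adjusted p = 8.61e-09) and 0.07 in mp53 cells (adjusted p = 0.762). Tnfsf13b, the B cell survival factor BAFF, rose by 0.29 against bleo/Neo (adjusted p = 0.00325), and its difference from YAMC was 0.14 (adjusted p = 0.162). The median difference of the 6 ligands was 0.05, beside 0.01 for all tested genes.

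Of 18 other family receptors 10 were tested, with 5 higher and 1 lower in mp53/Ras than in bleo/Neo cells (26.7% and 27.9% of all tested genes) and a median difference of 0.07. Against YAMC 6 were higher and 2 lower, beside 29.1% and 28.7% of all tested genes. Tnfrsf23 and Tnfrsf22, mouse decoy receptors for TRAIL, differed by 1.87 ± 0.10 (adjusted p = 1.68e-22) and 0.93 ± 0.09 (adjusted p = 2.83e-12). Tnfrsf23 lay at 7.03 to 7.46 in mp53/Ras, 5.54 to 6.15 in mp53, 6.53 to 7.92 in Ras, 5.02 to 5.58 in bleo/Neo and 5.62 to 6.10 in YAMC cells. It was above the table median on 20 arrays only, and it passed the brightness filter through the mp53/Ras and Ras arrays, where it is high. The platform annotation gives another probe set to Tnfrsf22 and Tnfrsf23 together, so signal shared between these similar genes is uncertain. Eda2r, the ectodysplasin A2 receptor and a p53 target, was lower in mp53/Ras than in bleo/Neo cells, at 9.77 to 10.20 against 11.02 to 11.30 (-1.28 ± 0.07, adjusted p = 4.16e-22), and lower in mp53 cells (-0.71, adjusted p = 1.63e-12) and Ras cells (-0.73, adjusted p = 5.24e-13).

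Of 18 listed adaptors, caspases and inhibitors of death receptor signalling 15 were tested, and in mp53/Ras against bleo/Neo cells 5 were higher and 4 lower, beside 26.7% and 27.9% of all tested genes, with a median difference of 0.02. Against YAMC 5 were higher and 6 lower, beside 29.1% and 28.7% of all tested genes. Cflar, an inhibitor of caspase-8 activation at death receptors, rose by 0.85 ± 0.12 (adjusted p = 2.71e-08), and Ripk3, the necroptosis kinase, by 0.74 ± 0.10 (adjusted p = 4.67e-09). Cyld, a deubiquitinase of TNF receptor complexes, was lower by a difference of -0.88 ± 0.09 (adjusted p = 2.56e-11). Against YAMC these differed in part, with Cflar at 0.17 (adjusted p = 0.222), Ripk3 lower at -0.34 (adjusted p = 0.00255) and Cyld lower at -0.79 (adjusted p = 5.73e-10). Of 23 TRAFs and NF-kB regulators 18 were tested, with 4 higher and 3 lower (26.7% and 27.9% of all tested genes) and a median of 0.04. Against YAMC 5 were higher and 3 lower, beside 29.1% and 28.7% of all tested genes. The adaptor Traf5 rose by 1.14 ± 0.07 (adjusted p = 5.81e-19), Tnfaip3, an inhibitor of NF-kB signalling, rose by 0.50 (adjusted p = 0.000134), and the kinase subunit Ikbkb was lower by a difference of -0.41 (adjusted p = 3.54e-05). Against YAMC the mp53/Ras differences were 0.22 for Traf5 (adjusted p = 0.00878), 0.16 for Tnfaip3 (adjusted p = 0.212) and -0.24 for Ikbkb (adjusted p = 0.0127), and Traf5 was lower in Ras than in YAMC cells (-0.31, adjusted p = 0.000571). The bleo/Neo cells themselves were below YAMC by -0.92 for Traf5 (adjusted p = 5.13e-15) and -0.34 for Tnfaip3 (adjusted p = 0.0121).

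Of 25 p53 target genes other than Fas and Tnfrsf10b 24 were tested, and in mp53/Ras against bleo/Neo cells 3 were higher and 17 lower (26.7% and 27.9% of all tested genes), with a median difference of -0.50 beside 0.01 for all tested genes. Against bleo/Neo, in mp53 cells 2 were higher and 5 lower, beside 16.5% and 18.9% of all tested genes (median -0.07), and in Ras cells 2 were higher and 11 lower, beside 19.7% and 21.4% (median -0.13). Against YAMC, 1 was higher and 16 lower in mp53/Ras cells, beside 29.1% and 28.7%, with a median of -0.44. In mp53 cells 0 were higher and 10 lower than in YAMC, beside 11.1% and 11.8%, and in Ras cells 2 were higher and 11 lower, beside 21.5% and 21.2%. Pmaip1, a pro-apoptotic member of the BCL2 family, differed between mp53/Ras and bleo/Neo cells by -4.83 ± 0.21 (adjusted p = 1.81e-25). Perp, a desmosome-associated apoptosis effector, differed by -3.86 ± 0.30 (adjusted p = 5.21e-16). Against YAMC the mp53/Ras differences were -4.41 for Pmaip1 (adjusted p = 8.63e-23) and -2.45 for Perp (adjusted p = 1.02e-09). Perp was higher in bleo/Neo than in YAMC cells by 1.41 (adjusted p = 0.000149). In mp53 cells Perp already differed from bleo/Neo by -3.44 (adjusted p = 7.89e-14). The mp53/Ras minus mp53 difference was -0.42 for Perp (adjusted p = 0.246) and -3.43 for Pmaip1 (adjusted p = 1.32e-18). Tnfrsf23 and Eda2r are on this list too, and Tnfrsf23 was one of the 3 that were higher. The difference of Fas, -1.71, lies beyond the list's median, as does that of Tnfrsf10b by 1421296_at, -0.80, while that of Tnfrsf10b by its brighter probe set, -0.27, does not.

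**Figure D5:**
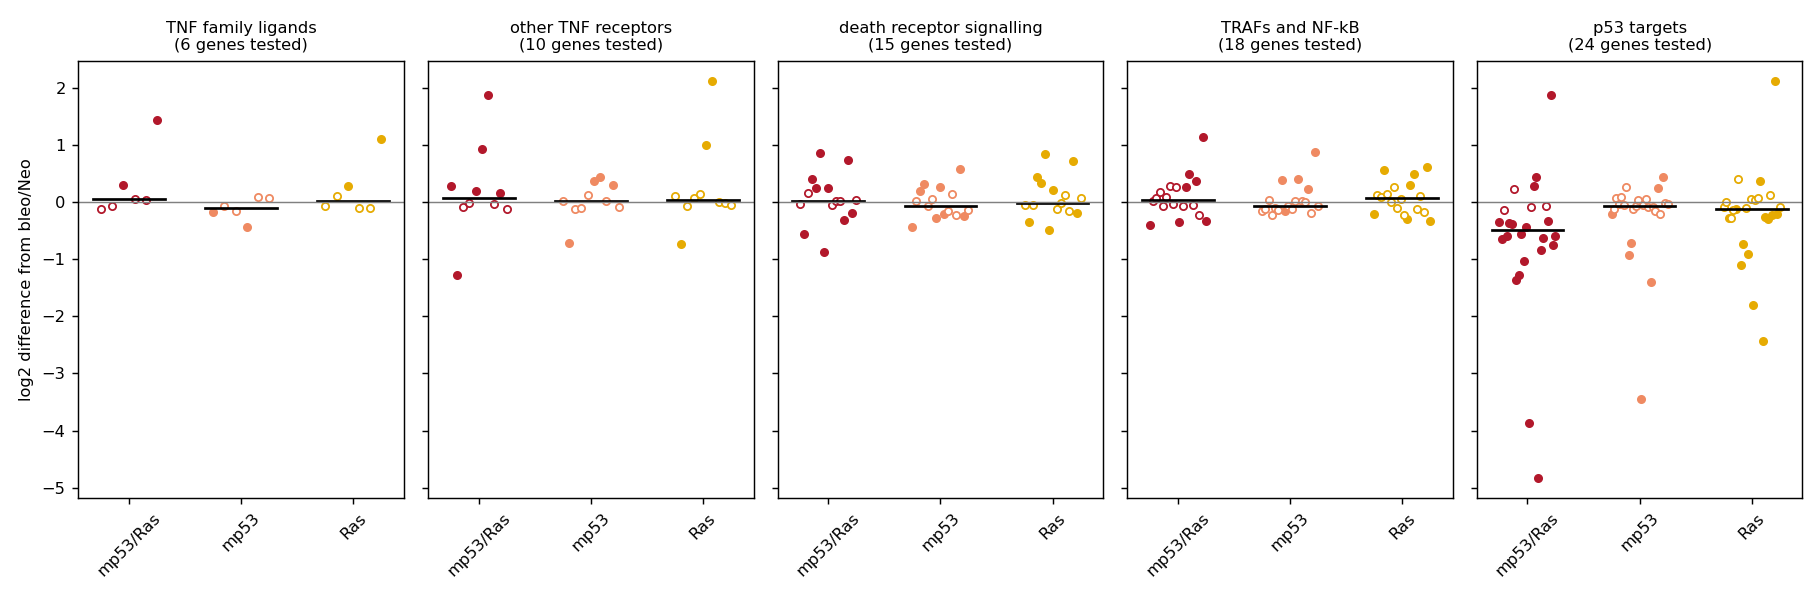
Log2 difference of mp53/Ras, mp53 and Ras cells from bleo/Neo cells for each tested gene of 5 lists. Filled points had an adjusted p under 0.05 and the black bars are medians. The p53 targets in mp53/Ras cells have the lowest median, -0.50, and Pmaip1 and Perp are its lowest points.

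The genes most like each member were found by the root mean square difference between the 5 group means, each centred on the mean of the 5, over 50 arrays. For Fas they were Zfp385a (0.04) and Dffb (0.05), with Zfp385a at 9.15 in mp53/Ras, 10.09 in mp53, 10.27 in Ras, 10.79 in bleo/Neo and 10.54 in YAMC cells. For Tnfrsf18 they were Celf5 (0.17) and Ldhb (0.20), for Tnfrsf21 Ccl2 (0.07) and Pimreg (0.11), and for Tnfrsf1b Slc25a30 (0.04) and Zfas1 (0.06). For Ltbr they were Pgghg and Tor2a, for Tnfrsf12a Timm10 and Hnrnpd, for Tnfrsf1a Tmem86b and Mzb1, and for Tnfrsf10b Ap2b1 and Gtf3c5, with differences of 0.01 to 0.05.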

How the data were processed

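The authors deposited 1 table of intensities on a linear scale, 1 value per probe set and array, for 50 Affymetrix mouse arrays. Per the submitters' processing notes, RMA was used (no version is listed), and the step that undid its log scale is not given in the sources used here. Array medians lay between 86.4 and 86.7, so the arrays had been brought to nearly the same distribution. Of 45101 probe sets 45037 had values. Arrays give no read depth, and their number limits the precision. The values were taken to log2 with no offset. Symbols came from the platform annotation: 34945 probe sets had 1 symbol, 932 several and 9160 none, and the last 2 kinds were left out. Each of 18193 genes was represented by its brightest probe set and tested if above the table median (6.44) on at least 10 arrays, which left 12883 genes.

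All 50 arrays entered a single limma 3.58.1 model (run under R 4.3.3) that had a coefficient for each group and an intensity trend in eBayes. It gave 12 comparisons, each Benjamini-Hochberg adjusted over the 12883 genes and called at an adjusted p under 0.05. The same fit over all probe sets, with no filter, gave the values of further probe sets. The code was tested on simulated data. The members and gene lists were chosen with earlier results of these data known. All members are named, with the 3 called genes of each list that differed most in mp53/Ras against bleo/Neo cells, ligands of members called in any comparison, and the 2 genes most like each member. Alternatives were a replicate block, no filter, the mean of bright probe sets, an offset of 16, no intensity trend, median centring, leaving out arrays nearer another group (also with replicate 2 of YAMC, which earlier results had listed and which lay nearest its own group here) and, added after seeing the data, leaving out each array. No scan date or batch was used here.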

Additional observations from a re-analysis of the deposited data

Results flagged for a closer look

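Single arrays stood apart within their group for 13 of 50 combinations of member and group, by a gap to the nearest array that was a large part of the group's range, and chance alone gives about 1 in 20. Replicate 10 of mp53 was high for Tnfrsf1b (8.96, others 7.53 to 7.82) and for Tnfrsf18 (10.72, others 9.62 to 10.10). Replicate 10 of Ras was low for Tnfrsf1b (7.53, others 8.36 to 8.67) and for Tnfrsf12a (10.51, others 11.43 to 12.46). Replicate 8 of mp53 was low for Tnfrsf12a (9.24, others 10.92 to 11.48) and for Tnfrsf21 (6.08, others 6.58 to 7.14). These are the arrays that lay nearer another group over all genes. Replicate 1 of bleo/Neo was low for Fas (9.44, others 10.55 to 11.16), low for Tnfrsf19 (5.47, others 6.001 to 6.44) and high for Tnfrsf11b (5.80, others 5.04 to 5.33). Replicate 10 of bleo/Neo was low for Ltbr (9.99), replicate 6 of mp53/Ras low for Ltbr (9.26), replicate 3 of bleo/Neo high for Tnfrsf18 (12.32) and replicate 4 of bleo/Neo high for Tnfrsf12a (12.45).

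The non-additive term was called for 3 members with each control, and Tnfrsf18 was the member called with both. With bleo/Neo these were Tnfrsf18 (-1.15), Tnfrsf1b (0.51) and Tnfrsf21 (0.52), where 11.8% of all tested genes were above the sum and 12% below. Tnfrsf1b and Tnfrsf21 were not called with YAMC, and leaving out any of 17 single arrays ended the Tnfrsf21 call. With YAMC they were Tnfrsf18 (-1.17), Fas (-0.63) and Tnfrsf1a (-0.26), where 5.42% of all tested genes were above and 7.02% below. Fas (-0.41, adjusted p = 0.074) and Tnfrsf1a (0.05, adjusted p = 0.701) were not called with bleo/Neo. YAMC cells received no virus, so the term with YAMC cannot separate the oncogenes from infection and the vectors.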

How the results depend on the processing

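Over the 8 tested members and 12 comparisons there were 96 results, and no called difference changed sign under any alternative or on leaving out any array. With no filter, no intensity trend, an offset of 16 or median centring all 96 kept their call. The mean of bright probe sets changed 9, made 3 of them uncalled and concerned Tnfrsf10b, Tnfrsf1b and Tnfrsf21, whose probe sets disagree. For Tnfrsf1b it gave an mp53/Ras minus Ras difference of 0.13 (adjusted p = 0.203) and a non-additive term with bleo/Neo of 0.24 (adjusted p = 0.1). The bleo/Neo minus YAMC difference of Tnfrsf1b by this mean was 0.18 (adjusted p = 0.0506). Leaving out replicates 10 of mp53 and Ras changed 3 calls, and leaving out replicate 8 of mp53 and replicate 2 of YAMC as well changed 6, among them Tnfrsf12a in mp53/Ras against bleo/Neo cells (0.49, adjusted p = 0.0196). The number of members called moved with single arrays left out, from 2 to 4 in mp53 minus YAMC, 4 to 6 in mp53 minus bleo/Neo and 7 to 8 in mp53/Ras minus bleo/Neo. It ran from 3 to 5 in mp53/Ras minus Ras and 2 to 4 for the non-additive term with bleo/Neo. It ran from 4 to 5 in Ras minus bleo/Neo, Ras minus YAMC, bleo/Neo minus YAMC and Ras minus mp53, and 5 to 6 in mp53/Ras minus mp53. It stayed at 5 in mp53/Ras minus YAMC and at 3 for the non-additive term with YAMC. Counts over all genes moved by over 1.5 times only with no filter, where 18193 genes are tested in place of 12883: 4711 against 2952 in mp53 minus YAMC, 4576 against 2779 in mp53/Ras minus Ras, 5038 against 3073 for the non-additive term with bleo/Neo and 3353 against 1602 with YAMC. Called ligands numbered 8 with no filter and 2 with it, and TRAFs and NF-kB regulators 11 by the mean of bright probe sets and 7 by the brightest.

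The groups share replicate numbers 1 to 10. Of 100 same-numbered pairs 67 had deviations that correlated above 0.1, the range being -0.52 to 0.75. Each array was also compared with the 10 arrays of each other group. In 76 of these 200 combinations it correlated best with the array of its own number. This is a hint from the data that same-numbered arrays share something, but not every pair passed 0.1 and the labels do not say what a number marks, so the numbers were not used as pairs in the reported values. With the replicate block the members called numbered 7 in mp53/Ras minus bleo/Neo, as without it, and the block changed 1 member call, the non-additive term of Fas with bleo/Neo (-0.41, adjusted p = 0.0478).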

Other observations

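In mp53 replicate 10 and Ras replicate 10 Tnfrsf1b and Tnfrsf18 lay nearer the other population's mean than their own. Tnfrsf1b was 8.96 on the mp53 array and 7.53 on the Ras array, beside means of 7.78 in mp53 and 8.39 in Ras. Tnfrsf18 was 10.72 on the mp53 array and 9.96 on the Ras array, beside means of 9.90 in mp53 and 10.62 in Ras. Fas was 9.88 on the mp53 array and 9.77 on the Ras array, beside means of 9.93 in mp53 and 10.06 in Ras.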
